A study of Mus musculus with 5 samples.

Results

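Collagen genes encode the chains of the most abundant proteins of the extracellular matrix. They were chosen by symbol alone, as every gene named Col, a number, a and a number, which gave 44 of the 28692 gene identifiers in the droplet matrices. Their transcripts were counted in kidneys of 8 week old C57/BL6 mice while 1 ureter was obstructed and after it was reopened (reversible unilateral ureteric obstruction, UUO). There were 4 droplet libraries: sham surgery (the day 0 point), obstruction for 2 days, obstruction for 7 days, and reversed UUO, collected on experimental day 14, when 7 days had passed since reversal. Every time point was represented by a single pool of 3 mice, so no test between time points could be made and library and time point cannot be told apart. A separate Smart-seq2 sample of 768 wells mixed all time points. Tissue was dissociated in the cold, and dead cells were gated out by DAPI. No genotype, transgene or drug is named for any group.

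Collagen chains wind around each other into helices, and the classes differ in what those helices build. Fibrillar collagens (types I, II, III, V, XI, XXIV and XXVII) form or regulate tensile fibrils and are the main material of kidney scars, where they are made mostly by fibroblasts and pericytes. Type IV collagen forms the network of basement membranes: the alpha 1 and alpha 2 chains occur in most of them, and the alpha 3, alpha 4 and alpha 5 chains in the glomerular filter and under parts of the tubule. Type VI collagen forms beaded filaments, types XII, XIV and XVI sit on fibrils, type VIII forms hexagonal networks, and types XV and XVIII are proteoglycans of basement membrane zones. By class the members were 11 fibrillar, 6 basement membrane, 6 beaded filament, 3 network, 9 fibril-associated, 4 transmembrane, 2 multiplexin (types XV and XVIII), 1 anchoring (type VII) and 2 others.

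Cells were assigned to gates by summed unique molecular identifiers (UMIs) of marker genes, with no collagen among the markers. The stromal gate used Pdgfrb and Dcn, and a cell entered a gate with at least 2 UMIs of its markers where every other gate's sum was at most 33.3% of that. Values below are UMIs of a gene per 1000000 UMIs of the gate (CPM), and each UMI stands for 1 captured 3′ end, so no division by transcript length was made. Intervals are exact, at 95%, and cover counting error only. In the order sham, day 2, day 7 and reversed, 3746, 2159, 4287 and 3140 cells were kept, with between 2739 and 5938 cells and between 18649637 and 30462683 UMIs deposited per library. The median mitochondrial share of deposited cells was 40.6%, 16.2%, 3.00% and 14.0%, and pairs of libraries shared 16 to 39 cell barcodes.

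The stromal gate held 3 sham, 3 day 2, 65 day 7 and 27 reversed cells, with 17307, 37316, 632704 and 202566 UMIs. Stromal values of sham and day 2 thus rest on 3 cells each and describe those cells, not the stroma of the kidney. The sham cells had no Dcn UMI and only 2 of 6 fibroblast markers (Pdgfra, Lum, Dpt, Gsn, Mfap5, Serpinf1), with Lum, Dpt, Mfap5 and Serpinf1 at 0. They had all 6 mural markers (Rgs5, Notch3, Cspg4, Mcam, Myh11, Des) at a summed 3582 CPM and all 3 mesangial markers at 4507 CPM, so by their markers the sham cells were mural-like or mesangial-like. Summed fibroblast markers were 462, 1527, 3562 and 2587 CPM over the 4 libraries, and summed mural markers 3582, 375, 319 and 824 CPM. The podocyte gene Nphs1 and the urothelial markers were at 0 in the gate in all 4 libraries. Fewer stromal cells in the kidney and fewer released by the digestion cannot be told apart here.

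In the day 7 kidney, 83.7% of all fibrillar collagen UMIs came from the 65 stromal cells. The fibrillar class reached 33388 CPM there, against 98.9 CPM in endothelial, 107 CPM in tubule, 93.9 CPM in phagocyte and 96.5 CPM in lymphocyte cells. The 4 class sums outside the stromal gate lay close together, but their make-up differed. The tubule sum included 130 Col27a1 and 111 Col5a2 UMIs in a gate of 6439304 UMIs. Lymphocytes had 0 and 5 UMIs of these genes in a gate of 1564457. The part of free RNA in the 4 sums was not tested. In the other libraries the stromal share of fibrillar UMIs was 1.04% of 386 UMIs in sham and 40.8% of 743 in day 2. It was 35.6% of 6294 in reversed, against 25252 UMIs in all at day 7. These shares also depend on which genes filled the class. In sham, Col27a1 had 212 UMIs and Col5a2 140, of which 203 and 126 lay in tubule cells. Col1a1, Col1a2 and Col3a1 had only 4, 19 and 8 sham UMIs. At day 2, Col27a1 and Col5a2 had 109 and 159 UMIs, 101 and 113 of them in tubule cells. The day 2 stromal gate held 33 of 55 Col1a1, 68 of 129 Col1a2 and 169 of 254 Col3a1 UMIs. Cells that entered no gate held 42.0% of the reversed library's fibrillar UMIs, and with a wider gate (stromal sum at least as large as every other) the stromal share was 53.9% there and 86.8% at day 7. Type IV collagen was placed otherwise: tubule cells held 85.0%, 74.7%, 34.1% and 60.6% of its UMIs over the 4 libraries and endothelial cells 9.69%, 16.8%, 36.0% and 21.3%.

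**Figure D1:**
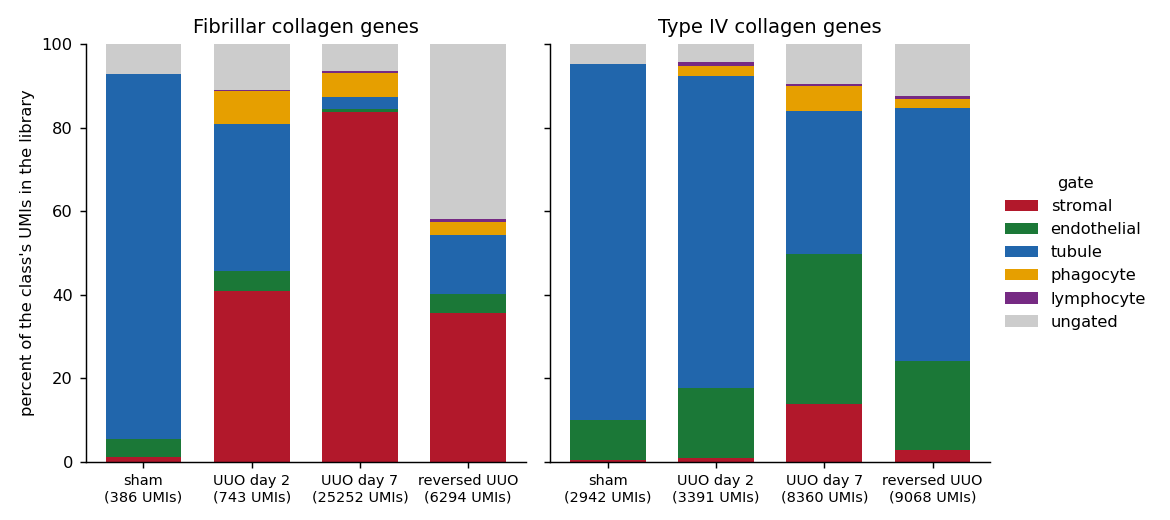
Share of each library's UMIs (percent) that came from each gate, for the fibrillar class and the type IV class, with 1 bar per library. At day 7 the stromal gate holds 83.7% of fibrillar UMIs, whereas tubule and endothelial cells together hold most type IV UMIs in all 4 libraries.

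Type I collagen, a heterotrimer of the Col1a1 and Col1a2 chains, and type III collagen, a homotrimer of Col3a1, made up most stromal collagen transcripts from day 2 on. Col1a1 (chr11:94936224-94953042, GRCm38, plus strand) was at 0 CPM in sham, 884 in day 2, 9126 in day 7 and 3273 in reversed stromal cells. Col1a2 was at 116, 1822, 10147 and 4147 CPM in the same order. Col3a1 was at 0, 4529, 12590 and 3204 CPM. For each of the 3 genes day 7 was the highest library and sham the lowest, with 0, 2 and 0 sham UMIs. At day 7 the counting intervals were 8892 to 9364 CPM for Col1a1, 9900 to 10398 for Col1a2 and 12315 to 12870 for Col3a1. None of these reached the reversed intervals, whose upper ends were 3532, 4437 and 3460 CPM. The log2 ratio of reversed to day 7, on the log2(CPM + 1) scale, was -1.48 (-1.60 to -1.36) for Col1a1, -1.29 (-1.40 to -1.19) for Col1a2 and -1.97 (-2.09 to -1.86) for Col3a1. Reversed stromal cells still lay at least 18.9-fold above sham for Col1a1 and at least 18.5-fold above it for Col3a1, taking 3 UMIs as the floor of the sham gate. Those sham cells were the mural-like or mesangial-like cells described above.

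The proximal promoters of Col1a2 and Col3a1, which were both highest at day 7 in the stromal gate, are shown because they differ in the motifs searched. Each sequence is the RefSeq window (GRCm38.p6) from 250 bases before to 50 bases after the annotated start, 5′ to 3′ on the gene's strand. Capitals mark CCAAT and TATAAA on either strand, which read ATTGG and TTTATA on the other one. Col1a2 lies at chr6:4505368-4505667 (plus strand), and its RefSeq start differs from the GENCODE start of the gene at 4504814. Col3a1 lies at chr1:45311288-45311587 (plus strand).
Col1a2: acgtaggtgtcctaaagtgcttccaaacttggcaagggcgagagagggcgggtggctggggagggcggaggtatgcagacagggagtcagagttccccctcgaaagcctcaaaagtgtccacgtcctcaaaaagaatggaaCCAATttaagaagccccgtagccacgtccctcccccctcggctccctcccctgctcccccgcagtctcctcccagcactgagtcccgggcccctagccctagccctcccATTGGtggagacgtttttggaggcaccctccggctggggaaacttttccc
Col3a1: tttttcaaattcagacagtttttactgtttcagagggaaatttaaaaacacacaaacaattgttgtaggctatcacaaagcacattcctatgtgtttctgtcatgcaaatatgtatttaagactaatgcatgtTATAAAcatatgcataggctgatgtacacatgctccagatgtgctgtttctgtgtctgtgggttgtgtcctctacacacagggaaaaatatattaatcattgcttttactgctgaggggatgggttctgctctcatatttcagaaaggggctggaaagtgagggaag
The Col1a2 window holds CCAAT once on each strand and no TATAAA, whereas the Col3a1 window holds TATAAA and no CCAAT. Of 32851 RefSeq mouse promoters of 300 bases, 37.4% held CCAAT and 13.6% TATAAA on either strand. The 35 members with a RefSeq promoter had 38 windows, of which 34.2% held CCAAT and 13.2% TATAAA, both near the share of all promoters. GGGCGG, the core of an Sp1 site, was in 60.5% of member windows and 35.7% of all. A match describes letters and not a bound site.

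The minor fibrillar chains that set fibril diameter were below the type I and III chains from day 2 on and had the same order of day 7 and reversed. Col5a1 was at 0, 188, 511 and 143 CPM over sham, day 2, day 7 and reversed stromal cells. Col5a2, which lies 24615 bases from Col3a1 on the opposite strand of chromosome 1, was at 57.8, 482, 846 and 232 CPM. The log2 ratios of reversed to day 7 were -1.83 for Col5a1 and -1.86 for Col5a2, close to that of Col3a1. Col11a1, a chain best known from cartilage, had stromal UMIs in the day 7 library alone, at 91.7 CPM from 58 UMIs. The reversed gate had 0 UMIs of it, which allows up to 14.8 CPM. The sham and day 2 gates also had 0, which at their depth allows up to 173 and 80.4 CPM.

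Over the whole fibrillar class, stromal cells had 231, 8120, 33388 and 11053 CPM in sham, day 2, day 7 and reversed. The log2 ratio was 2.04 (1.88 to 2.21) for day 7 over day 2 and -1.59 (-1.66 to -1.53) for reversed over day 7. The make-up of the class moved as well: 5.12 Col3a1 UMIs were counted per Col1a1 UMI at day 2, 1.38 (1.33 to 1.43) at day 7 and 0.98 (0.88 to 1.09) after reversal. Col1a2 per Col1a1 was 2.06, 1.11 and 1.27 in these 3 libraries. The day 2 figures rest on 3 cells, of which 1 gave 67.8% of the collagen UMIs, and without that cell the class ratio of day 7 to day 2 was 1.27 in place of 2.04.

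Of 20 members with at least 30 UMIs over both libraries, 10 were at least 2-fold lower in reversed than in day 7 cells, where 7.13% of all 4152 such genes were. They were the fibrillar Col1a1, Col1a2, Col3a1, Col5a1, Col5a2, Col11a1 and Col27a1, with Col6a3, Col8a2 and Col14a1. Only 1 of the 20, Col18a1, was at least 2-fold higher, beside 4.55% of all genes. The median log2 ratio of these 20 was -0.91, against 0.01 over all genes. From day 2 to day 7, 12 of 19 members with enough UMIs were at least 2-fold higher (27.2% of 3369 genes) and 1 lower (11.2%). Reversed cells were at least 2-fold above sham for 13 of 14 members (26.8% of 1114 genes) and day 2 cells for 4 of 4 (40.9% of 264), with none lower in either (16.6% and 10.2% of all genes). A member at or near 0 UMIs in 1 library passed the count minimum only by being high in the other, so all these counts describe the members that passed and lend no support. Between day 2 and day 7 this holds for Col11a1, Col8a2 and Col14a1 with 0 day 2 UMIs and for Col12a1 and Col8a1 with 1, and between day 7 and reversal for Col11a1 with 0 and Col8a2 with 1 reversed UMI. Against sham it holds for every member called except Col4a1 (5 sham UMIs), as the others had 0 to 2 sham UMIs. Col6a1, Col6a2, Col5a1 and Col4a1, with 4, 5, 7 and 12 day 2 UMIs, reached the minimum mainly through day 7. So did Col27a1, with 33 day 7 and 5 reversed UMIs.

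**Figure D2:**
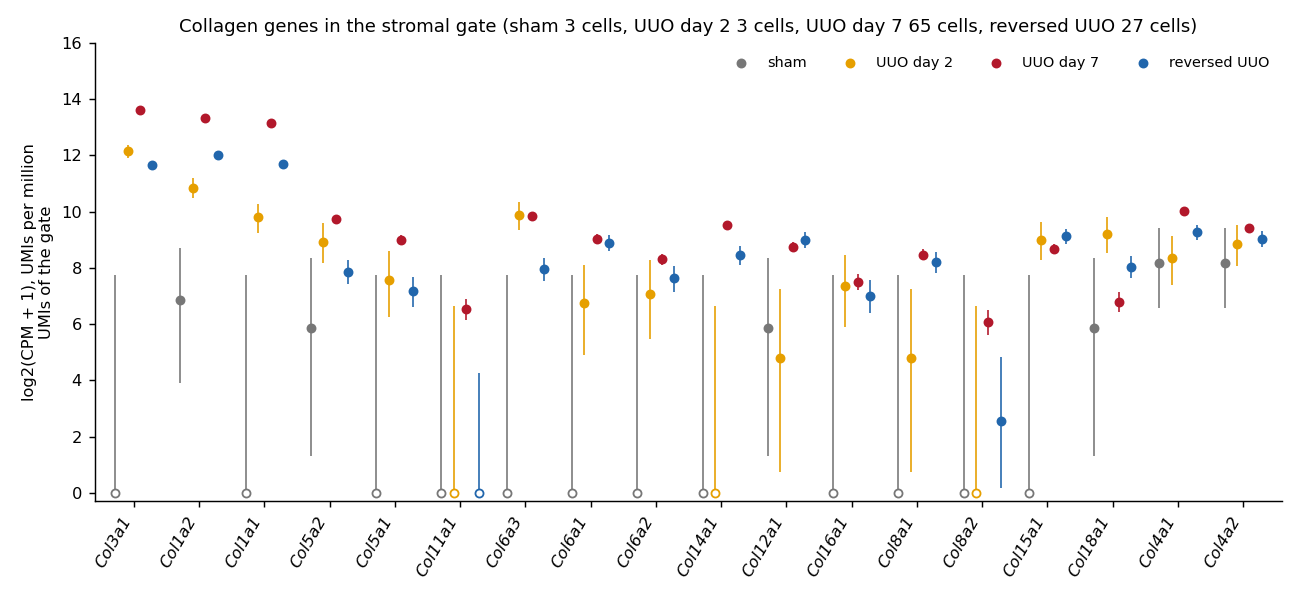
Stromal gate level of collagen genes in the 4 libraries, as log2(CPM + 1) with exact 95% Poisson intervals for counting error. Open symbols mark 0 UMIs. Described members that are not drawn are Col4a3, Col4a4, Col4a5, Col4a6, Col13a1, Col23a1, Col24a1, Col26a1 and Col27a1. Col1a1, Col1a2 and Col3a1 peak at day 7 (Col3a1 at 12590 CPM), whereas Col18a1 is higher after reversal (262 CPM) than at day 7 (111 CPM).

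Single stromal cells varied widely at day 7. All collagens together made up a median of 3.14% of a cell's UMIs and up to 12.1%, with 2 to 1411 collagen UMIs per cell. In the reversed library the median was 1.40% and the highest 4.07%, with 6 to 296 UMIs per cell. The 3 day 2 cells had 4, 134 and 291 collagen UMIs, and the sham median was 0.092%. The cell with the most collagen held 5.67% of the collagen UMIs at day 7 and 9.49% after reversal, so neither level was set by 1 cell. Col1a1 was undetected in 3 of 65 day 7 cells and 3 of 27 reversed cells.

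Stromal cells were also separated by contractile genes and by Dcn. Among cells with at least 10 UMIs of Acta2 and Rgs5, genes of contractile mural cells and myofibroblasts, Col1a1 was at 10387 CPM at day 7 (10 cells) and 3303 CPM after reversal (6 cells). Among those under 10 UMIs it was at 8697 CPM (55 cells) and 3262 CPM (21 cells). Col3a1 was at 11644 and 2177 CPM in the first kind and 12912 and 3571 CPM in the second. Col4a1 was higher in the Acta2 and Rgs5 cells, at 1705 and 920 CPM, than in the others, at 818 and 502 CPM. Cells with Pdgfrb but no Dcn (3 and 4 cells) had little type I or III collagen: Col1a1 was at 231 CPM at day 7 and 748 CPM after reversal, and Col3a1 at 924 and 150 CPM. The Col1a1 value was thus higher after reversal in these few cells, unlike in the other groups, but 3 and 4 cells are too few to give a direction. In the same cells Col4a1 was at 577 and 948 CPM and Col4a2 at 693 and 1048 CPM. The share of such cells and the summed mural markers were both higher after reversal, and gating on Dcn alone gave a class ratio of -1.44 in place of -1.59, whereas Pdgfrb alone gave -2.98.

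Type VI collagen did not move as a unit. Col6a3, the chain that gives the filament its binding domains, was at 0, 938, 910 and 247 CPM over sham, day 2, day 7 and reversed stromal cells, a reversed to day 7 log2 ratio of -1.88 (-2.32 to -1.46). Col6a1 was at 0, 107, 525 and 474 CPM, and its reversed to day 7 ratio of -0.15 (-0.49 to 0.18) has an interval that spans no change. Col6a2 was at 0, 134, 315 and 197 CPM, with a ratio of -0.67. The 3 chains assemble together, and of them Col6a3 alone was past 2-fold after reversal.

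Fibril-associated and network collagens of the stroma also divided. Col14a1, which binds fibrils and regulates their growth, had no UMI in the sham and day 2 gates and stood at 727 CPM at day 7 and 351 CPM in reversed cells. The log2 ratio was -1.05 (-1.43 to -0.69). Col12a1, a related protein of tendon and stretched tissue, was at 57.8, 26.8, 427 and 508 CPM, and reversed over day 7 was 0.25 (-0.09 to 0.58). Its sham and day 2 values are 1 UMI each. Col16a1, which links fibrils to other matrix, was at 0, 161, 180 and 128 CPM. Col8a1, a chain of vessel wall and endothelial matrix, was at 0, 26.8, 354 and 291 CPM, and reversed over day 7 was -0.28 (-0.72 to 0.14). Its partner Col8a2 was at 0, 0, 66.4 and 4.94 CPM from 42 and 1 UMIs in the later 2 libraries. For Col12a1 and Col8a1 the counting interval of reversed over day 7 thus spans no change, in the same cells whose type I and III transcripts were lower.

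The multiplexins, whose C-terminal fragments are released from basement membranes, did not follow the fibrillar chains in stromal cells. Col15a1 was at 0, 509, 409 and 553 CPM over sham, day 2, day 7 and reversed, and reversed over day 7 was 0.43 (0.10 to 0.76). Col18a1, the precursor of endostatin, was at 57.8, 590, 111 and 262 CPM. Its log2 ratio was -2.40 (-3.11 to -1.64) for day 7 over day 2 and 1.23 (0.69 to 1.77) for reversed over day 7, opposite in both steps to the fibrillar chains. The day 2 values rest on 22 Col18a1 and 19 Col15a1 UMIs from 3 cells. Leaving out the top collagen cell was not tried for these 2 genes.

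Genes that modify, secrete, crosslink or bind collagen were read from a list of 43 names, of which 39 were in the matrices. In the stromal gate 28 of them had enough UMIs for each of the later 2 steps. From day 2 to day 7, 7 were at least 2-fold higher (27.2% of all genes), led by Plod2, Itga1 and Mia3 without a day 2 UMI, and 5 were lower (11.2%), led by P3h1, P3h4 and Loxl3. The median log2 ratio was -0.10 against 0.10 over all genes, and TMM scaling adds 0.51 to both. From day 7 to reversal none was higher (4.55% of all genes) and 4 were lower (7.13%), with a median of -0.29 against 0.01. These were Pcolce2, Lox, Sparc and, named after its value was seen, Loxl1. Lox, the enzyme that crosslinks collagen fibrils, was at 134, 631 and 109 CPM in day 2, day 7 and reversed cells, log2 ratios of 2.23 and -2.53. Sparc, a collagen-binding matricellular protein, was at 1502, 3537, 10277 and 4626 CPM from sham to reversed. Serpinh1, the collagen chaperone of the endoplasmic reticulum, changed less: it was at 693, 2251, 2105 and 1733 CPM. Lox and Sparc had the same high library as the fibrillar chains, and for Serpinh1 the interval of day 7 over day 2 (-0.42 to 0.24) spans no change.

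Type IV collagen is encoded by head-to-head gene pairs, and the main pair is shown because both its genes start inside 1 short stretch of chromosome 8. In GENCODE M21, Col4a1 spans chr8:11198423-11312826 on the minus strand and Col4a2 chr8:11312805-11449287 on the plus strand, with starts 21 bases apart. The genes overlap at their 5′ ends only, away from the 3′ ends that the droplet assay reads. The RefSeq windows below (GRCm38.p6) are chr8:11312777-11313076, minus strand, for Col4a1 and chr8:11312555-11312854, plus strand, for Col4a2. Capitals mark the 78 bases (11312777 to 11312854) that both windows contain, read on opposite strands.
Col4a1: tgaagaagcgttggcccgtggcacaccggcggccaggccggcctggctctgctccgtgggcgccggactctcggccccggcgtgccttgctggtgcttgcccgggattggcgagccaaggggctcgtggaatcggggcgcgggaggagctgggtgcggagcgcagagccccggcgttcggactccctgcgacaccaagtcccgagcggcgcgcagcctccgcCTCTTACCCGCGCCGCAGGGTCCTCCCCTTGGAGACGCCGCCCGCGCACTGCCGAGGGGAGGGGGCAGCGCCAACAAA
Col4a2: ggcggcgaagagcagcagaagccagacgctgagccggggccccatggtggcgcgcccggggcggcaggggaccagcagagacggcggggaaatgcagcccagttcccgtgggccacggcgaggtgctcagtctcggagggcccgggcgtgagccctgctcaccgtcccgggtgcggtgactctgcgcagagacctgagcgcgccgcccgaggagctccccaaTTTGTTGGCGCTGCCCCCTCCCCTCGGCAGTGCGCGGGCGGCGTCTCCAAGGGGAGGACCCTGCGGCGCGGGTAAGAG
The other pairs are Col4a3 with Col4a4 on chromosome 1, with starts 72 bases apart, and Col4a5 with Col4a6 on chromosome X, 1309 bases apart. Partners of a pair were not counted equally in tubule cells. They had 1.46, 1.74, 2.21 and 2.01 Col4a1 UMIs per Col4a2 UMI over sham, day 2, day 7 and reversed. Endothelial cells had 1.47, 1.18, 1.69 and 1.59, and the day 2 interval (0.99 to 1.41) spans equal counts. Col4a4 per Col4a3 in tubule cells was 1.59, 1.71, 1.99 and 1.64, and Col4a5 per Col4a6 was 10.4, 13.5, 6.71 and 9.03. In endothelial cells Col4a4 was the lower partner, with 0.55, 0.87, 0.60 and 0.78 per Col4a3. There the interval excluded equal counts at day 7 only (0.40 to 0.89).

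The stromal gate had the highest type IV level in each library, but in sham and day 2 this rests on 3 cells each. At day 7 it had 660 Col4a1 and 434 Col4a2 UMIs of 632704, and after reversal 124 and 105 of 202566. Endothelial cells came next and were better sampled, with 212, 156, 484 and 360 cells. Their type IV class was at 495, 737, 1446 and 1125 CPM over sham, day 2, day 7 and reversed. The log2 ratio was 0.57 (0.36 to 0.78) for day 2 over sham, 0.97 (0.84 to 1.10) for day 7 over day 2 and -0.36 (-0.44 to -0.28) for reversed over day 7. Reversed over sham was 1.18 (1.00 to 1.37). Over the alternatives tried these 4 ratios ran from 0.50 to 0.63, 0.92 to 0.99, -0.39 to -0.30 and 1.11 to 1.22. Day 7 was the highest library and sham the lowest.

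Col4a1 had the highest level of the type IV chains in each library, at 263, 355, 869 and 660 CPM, with Col4a2 at 179, 300, 515 and 415 CPM. A Col4a1 UMI was found in 45.3%, 66.0%, 86.6% and 84.7% of endothelial cells over the 4 libraries, at median depths of 2357, 3679, 3467 and 3791 UMIs. After thinning every cell to 1000 UMIs the shares were 22.6%, 32.1%, 55.8% and 42.2%, whereas in lymphocytes, thinned alike, they were 0%, 1.35%, 1.85% and 3.46% (unthinned 0%, 4.05%, 4.76% and 5.19%, at median depths of 1846, 3379.5, 3458.5 and 3088). From day 2 to day 7 the glomerular chains were not higher: endothelial Col4a3 was at 34.8, 38.8, 35.0 and 23.9 CPM and Col4a4 at 19.1, 33.7, 21.1 and 18.6 CPM. Per Col4a4 UMI, endothelial cells thus had 13.7, 10.5, 41.1 and 35.4 Col4a1 UMIs.

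**Figure D3:**
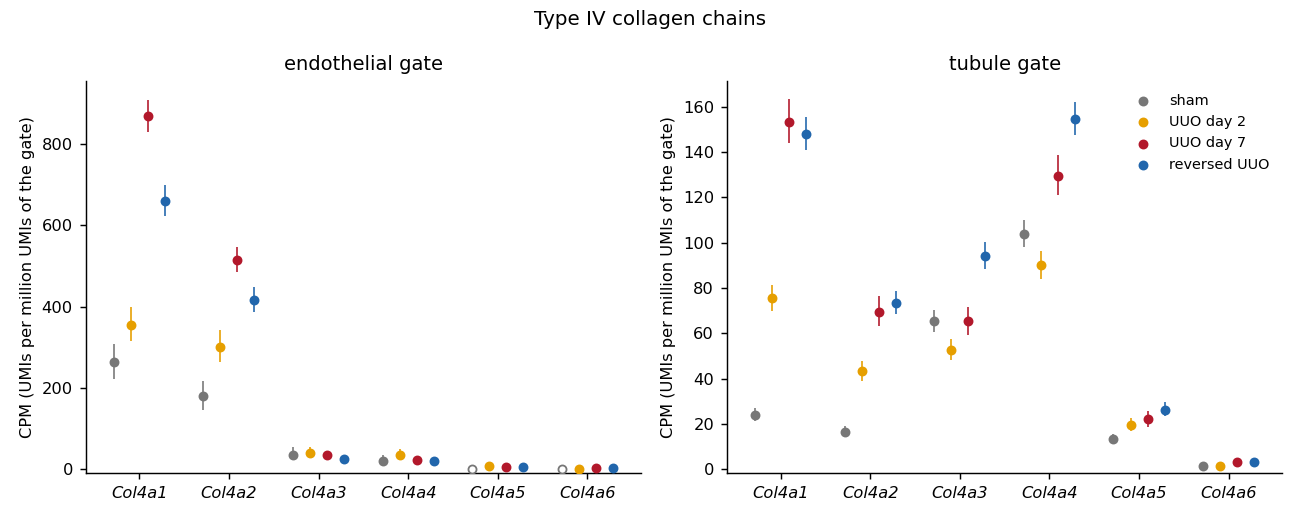
Type IV chains Col4a1 to Col4a6 in the endothelial and tubule gates (CPM, linear axes of different height, with exact 95% Poisson intervals for counting error) over the 4 libraries. Endothelial Col4a1 climbs from 263 to 869 CPM and stays at 660 CPM after reversal, and tubule Col4a1 goes from 24.0 to 153 and 148 CPM.

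Among the other endothelial collagens, Col18a1 and Col13a1 had other high libraries. Col18a1 was at 90.4, 247, 116 and 57.7 CPM over sham, day 2, day 7 and reversed, so day 2 was its high library. Its log2 ratios were 1.44 (1.00 to 1.91) for day 2 over sham, -1.09 for day 7 over day 2 and -0.99 for reversed over day 7. It was the 1 member at least 2-fold higher at day 2 of 6 with enough UMIs, beside 3.81% of all genes, and none was lower (3.57%). Col15a1 varied little, at 93.9, 73.8, 92.7 and 104 CPM. Col13a1, a transmembrane collagen of cell adhesions, was at 10.4, 13.0, 12.5 and 30.9 CPM, and reversed over day 7 was 1.24 (0.58 to 1.92). From day 2 to day 7, 3 of 12 members were at least 2-fold higher (6.11% of all genes) and 2 lower, Col18a1 and Col12a1 (2.78%). From day 7 to reversal 4 of 13 were higher (1.84%) and none lower (1.96%): Col13a1, Col8a1, Col1a1 and Col1a2. Col8a1 was at 15.6, 9.06, 2.88 and 18.1 CPM. It had 6 UMIs at day 7 and 31 after reversal, so it passed the count minimum through the reversed library alone. Against sham, 6 of 12 were higher after reversal (6.82%) and none lower (2.75%). Of these 6, Col1a1 and Col3a1 had 0 sham UMIs and Col1a2 had 2. Of the 3 higher at day 7, Col1a1 had 0 and Col3a1 3 day 2 UMIs. These members passed the count minimum through the higher library alone. Col13a1, with 6 sham and 53 reversed UMIs, reached it mainly through the reversed library.

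Type I chains in endothelial cells were low and went the opposite way from stroma after reversal, whereas Col3a1 did not. Col1a1 was at 0, 0, 15.4 and 44.9 CPM and Col1a2 at 3.48, 22.0, 21.6 and 58.3 CPM over sham, day 2, day 7 and reversed. Col3a1 was at 0, 3.88, 43.2 and 33.2 CPM, and its reversed to day 7 log2 ratio was -0.37 (-0.86 to 0.11). Lymphocytes had 24.9 CPM of Col1a1 at day 7, above the endothelial 15.4 CPM, and 7.48 CPM after reversal. In the reversed library the fibrillar class was at 37.4 CPM in lymphocytes and 168 CPM in endothelial cells. The endothelial log2 ratio of reversed to day 7 was 1.49 for Col1a1 and 1.39 for Col1a2, and whether stromal RNA in endothelial droplets had a part in it was not tested.

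Tubule cells numbered 3301, 1202, 788 and 1672, and their type IV class was at 224, 282, 443 and 500 CPM over sham, day 2, day 7 and reversed. Their mitochondrial share differed between libraries, with medians of 34.9%, 20.8%, 11.3% and 27.1%, which scales every other gene in CPM. The class log2 ratio of day 2 to sham was 0.33 (0.25 to 0.41), but -0.26 with TMM scaling and 0.06 with mitochondrial UMIs left out of the total, so no direction is given for that step. Day 7 over day 2 was 0.65 (0.57 to 0.73) and reversed over sham 1.15, positive under each scaling tried.

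The ubiquitous pair and the glomerular pair parted in tubule cells. Col4a1 was at 24.0, 75.5, 153 and 148 CPM and Col4a2 at 16.5, 43.3, 69.6 and 73.5 CPM over sham, day 2, day 7 and reversed. Col4a3 was at 65.3, 52.6, 65.2 and 94.2 CPM and Col4a4 at 104, 90.0, 130 and 155 CPM. The log2 ratio of day 2 to sham was 1.61 for Col4a1 and 1.34 for Col4a2, against -0.31 for Col4a3 and -0.20 for Col4a4, with the same signs under TMM scaling (1.04, 0.77, -0.89 and -0.80). As a ratio within the same cells, which no scaling touches, Col4a1 per Col4a4 was 0.23 in sham, 0.84 at day 2, 1.18 at day 7 and 0.96 after reversal. The minor chains were low: Col4a5 was at 13.1, 19.5, 21.9 and 26.3 CPM and Col4a6 at 1.25, 1.45, 3.26 and 2.91 CPM.

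Counted over tubule members with enough UMIs, 4 of 11 were at least 2-fold higher at day 2 than in sham (21.2% of all genes) and none lower (4.16%). The median log2 ratio of the 11 was 0.15, against 0.51 over all genes. For day 7 over day 2, reversed over day 7 and reversed over sham the medians were 0.67, 0.08 and 1.30, against 0.22, -0.26 and 0.49. At day 7, 5 of 17 were higher than at day 2 (6.44%) and none lower (1.15%). Of these 5, Col1a1 had 5, Col14a1 8, Col3a1 14 and Col1a2 16 day 2 UMIs, so they reached the minimum mainly through day 7. After reversal 2 of 21 were higher than at day 7 (4.19%) and 2 lower (4.56%), and 10 of 19 were higher than in sham (22.8%) with none lower (0.413%). Of these 10, Col6a2 had 0 sham UMIs, Col1a1, Col3a1 and Col6a1 had 1 and Col15a1 had 2. Col1a2 and Col16a1 had 5 each, so all these members passed the minimum mainly through the reversed library. The same holds for the 2 members higher than at day 7, Col6a1 and Col6a2, with 13 and 8 day 7 UMIs. Tubule Col3a1 was at 0.090, 1.56, 32.3 and 6.64 CPM over sham, day 2, day 7 and reversed, and day 7 lymphocytes had 39.0 CPM. The part of free RNA in these values was not tested.

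Within the tubule gate collagens were divided by segment. Segments were read from 4 genes: Slc34a1 of the proximal tubule, Slc12a1 of the thick ascending limb, Aqp2 of collecting duct principal cells and Atp6v1g3 of intercalated cells. A cell was led by a marker with at least 2 UMIs of it where each of the others was at most 33.3% of that. Cells led by Slc34a1 numbered 2802, 481, 191 and 1101 over sham, day 2, day 7 and reversed, those led by Slc12a1 163, 214, 122 and 175, those led by Aqp2 58, 76, 61 and 39, and those led by Atp6v1g3 43, 135, 129 and 107. The proximal share therefore differed between libraries, and values over the whole gate mix segments.

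Col5a2 is a fibrillar chain, yet in the tubule it marked the thick ascending limb. In cells led by Slc12a1 it was at 169 CPM (139 to 205) in sham, 32.5 (24.8 to 41.7) at day 2, 41.0 (30.4 to 54.0) at day 7 and 95.6 (78.4 to 115) after reversal, and in each of the other 3 segments it was at most 6.61 CPM in any library. Sham was the highest and day 2 the lowest, with log2 ratios of -2.35 for day 2 over sham, 0.33 for day 7 over day 2 and 1.20 for reversed over day 7. With mitochondrial UMIs left out of the total the values were 257, 40.8, 45.2 and 120 in the same order. In stromal cells, by contrast, sham was the lowest library for Col5a2 and day 7 the highest.

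Col4a4 was highest in cells led by Aqp2, at 449, 146, 236 and 372 CPM over sham, day 2, day 7 and reversed. Its log2 ratio of day 2 to sham was -1.62 there, against -0.41 in cells led by Slc34a1, where it was at 85.9, 64.3, 107 and 139 CPM. Col18a1 differed in direction by segment. It was at 24.0, 69.3, 117 and 59.9 CPM in cells led by Slc34a1, with a day 2 to sham ratio of 1.50 (1.22 to 1.77). In cells led by Atp6v1g3 it was far higher at 413, 317, 279 and 327 CPM, with a ratio of -0.38 (-0.66 to -0.09), and in cells led by Aqp2 it was at 263, 190, 137 and 208 CPM. The difference between segments was not tested.

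Col4a1 was higher at day 7 than in sham in all 4 segments. It was at 21.9, 60.7, 115 and 90.6 CPM in cells led by Slc34a1 and at 33.2, 80.2, 141 and 127 CPM there with mitochondrial UMIs left out of the total. In cells led by Aqp2 it was at 61.0, 124, 199 and 123 CPM. The less studied Col26a1 was at 51.3, 71.0, 50.4 and 29.3 CPM in cells led by Aqp2. Col27a1, a fibrillar chain of cartilage, was at 54.6, 32.3, 68.7 and 111 CPM in those cells and at 18.2, 11.3, 20.2 and 29.0 CPM over the whole tubule gate. Col24a1, a fibrillar chain of bone, stayed at or below 2.95 CPM in the tubule gate.

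**Figure D4:**
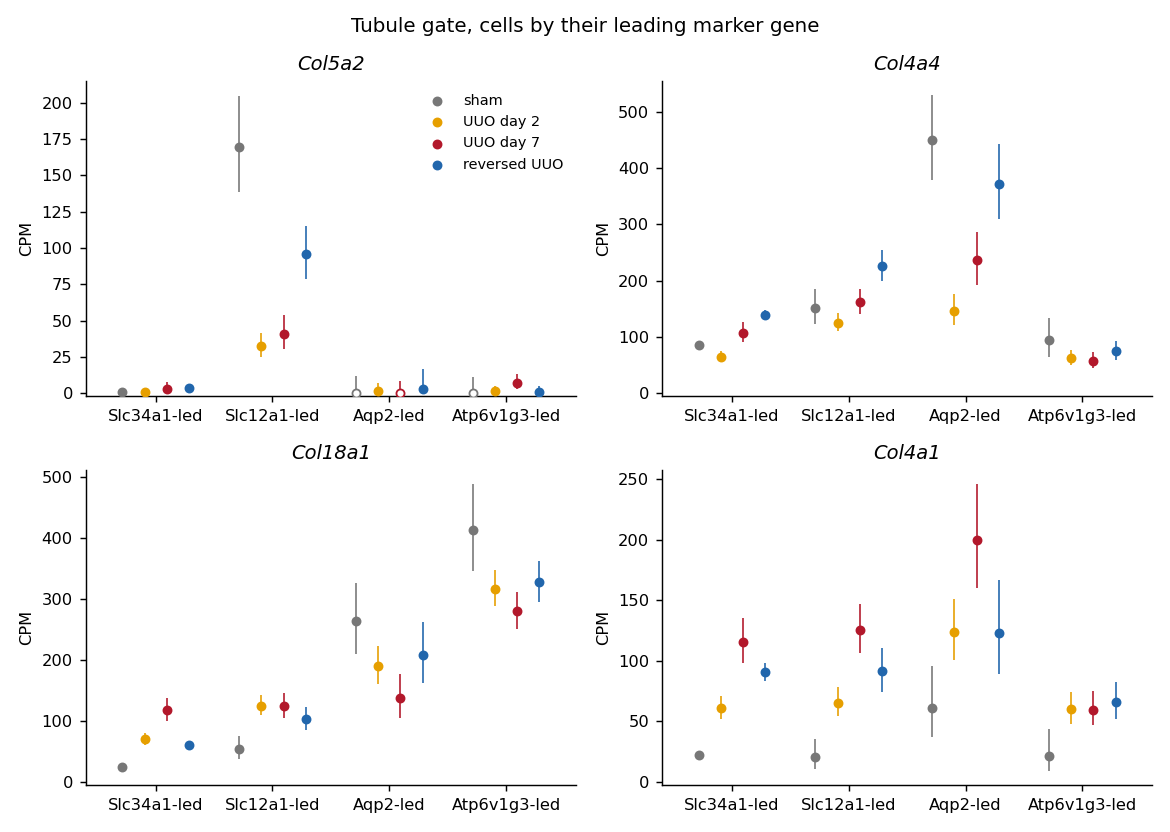
Col5a2, Col4a4, Col18a1 and Col4a1 in tubule cells by leading segment marker (CPM, with exact 95% Poisson intervals for counting error) over the 4 libraries. Col5a2 stands out in Slc12a1 cells (169 CPM in sham, 32.5 CPM at day 2), and Col18a1 is higher than in sham at day 2 in Slc34a1 cells and lower in Atp6v1g3 cells.

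The type VI chains Col6a1 and Col6a2 in the tubule gate were highest in the reversed library. Col6a1 was at 0.090, 0.45, 2.02 and 15.5 CPM there and Col6a2 at 0, 1.00, 1.24 and 8.64 CPM over sham, day 2, day 7 and reversed. The reversed to day 7 log2 ratio was 2.45 (1.84 to 3.02) for Col6a1 and 2.10 for Col6a2, and these were the 2 members past 2-fold higher in that step. Lymphocytes of the reversed library had levels as high, with 19.6 CPM of Col6a1 from 21 UMIs and 9.35 CPM of Col6a2, against 1.28 CPM of each at day 7. In the tubule gate many of the transcripts lay in cells with both Wt1 and Ncam1, genes of podocytes, parietal epithelium and nephron progenitors, which numbered 5, 10, 10 and 70 over the libraries. Of 170 Col6a1 UMIs in the reversed tubule gate, 132 came from its 46 such cells. Over all 70 reversed cells Col6a1 was at 233 CPM, Col6a2 at 121, Col4a1 at 1134, Col4a2 at 575, Col18a1 at 343 and Col4a5 at 143 CPM. These cells were chosen after Col6a1 values had been seen.

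Of the collagens in phagocytes, Col14a1 differed most clearly from its level in lymphocytes. It was at 44.0 CPM (17.7 to 90.7, 7 UMIs) in sham, 23.0 (19.2 to 27.4) at day 2, 36.3 (33.3 to 39.4) at day 7 and 49.6 (43.2 to 56.6) after reversal. In lymphocytes it was at 0, 1.67, 1.92 and 1.87 CPM and in tubule cells at 0.18, 0.89, 4.50 and 1.36 CPM, each below the phagocyte value of its library. Sham lymphocytes had 0 UMIs, which allows up to 61.6 CPM. It was seen in day 2 phagocytes, with 92.0% of that library's Col14a1 UMIs, although the day 2 stromal gate had none. The log2 ratio was 0.63 (0.36 to 0.91) for day 7 over day 2 and 0.44 (0.21 to 0.66) for reversed over day 7.

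Col14a1 differed between phagocytes with and without the single markers of the gate, of which there are 9. In day 2, day 7 and reversed phagocytes with an Ms4a7 UMI it was at 40.8, 46.6 and 72.0 CPM, against 8.33, 12.2 and 4.80 CPM without. With the macrophage receptor Cx3cr1 it was at 29.6, 44.1 and 66.3 CPM, against 2.27, 8.60 and 5.02 CPM without. With Adgre1, which encodes F4/80, it was at 32.4, 45.5 and 67.4 CPM, against 6.13, 16.9 and 15.3 CPM without. With Csf1r, the receptor of macrophage growth factor, it was at 24.8, 39.8 and 59.6 CPM, against 0, 15.3 and 10.1 CPM without, and Mpeg1 and Itgam also gave the higher level in cells that had them, with overlapping intervals for Itgam at day 7. Cd68 gave 23.2, 37.4 and 50.7 CPM against 15.9, 28.8 and 40.1 CPM, with intervals that overlap in each library. Flt3, the dendritic cell receptor, had the opposite order, with 3.36, 10.1 and 7.14 CPM in cells that had it and 25.4, 40.0 and 57.7 CPM in those that did not. Itgax, an integrin of dendritic cells and some macrophages, also had the lower level in cells that had it, with 17.9, 27.7 and 47.0 CPM against 28.1, 42.4 and 52.1 CPM, and intervals that overlap at day 2 and after reversal. The 42 sham phagocytes held 7 Col14a1 UMIs, and there Csf1r and Itgam went the other way, with 40.7 against 55.4 CPM and 0 against 61.9 CPM, all with overlapping intervals. A Col14a1 UMI was found in 14.3%, 12.4%, 17.7% and 21.6% of phagocytes from sham to reversed (4.76%, 1.00%, 3.78% and 5.70% after thinning), at median depths of 3253.5, 9941.5, 6501 and 6723 UMIs, and in 0%, 0.68%, 0.79% and 0.69% of lymphocytes (0%, 0%, 0.26% and 0% after thinning).

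**Figure D5:**
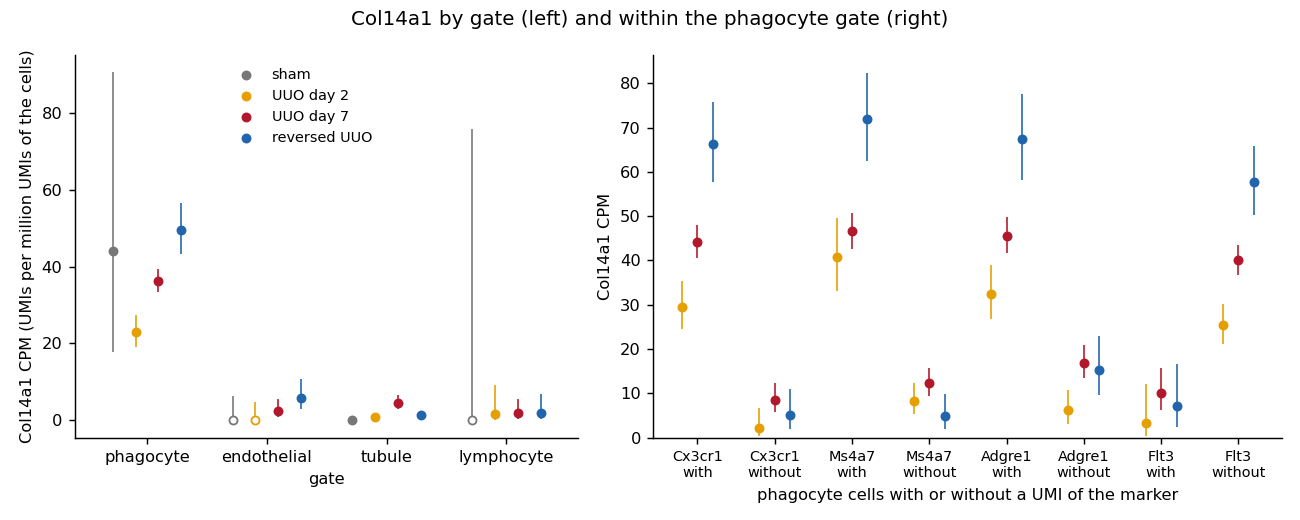
Col14a1 level (CPM, with exact 95% Poisson intervals for counting error) in 4 gates of each library (left) and in day 2, day 7 and reversed phagocytes with and without Ms4a7, Cx3cr1, Adgre1 and Flt3. Phagocytes lie at 23.0 to 49.6 CPM and lymphocytes at or below 1.92 CPM, and phagocytes with Ms4a7 reach 72.0 CPM after reversal.

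Type I and III transcripts in phagocytes lay near their level in lymphocytes. At day 7, Col3a1 was at 40.5 CPM in phagocytes and 39.0 CPM in lymphocytes, and Col1a1 at 18.9 and 24.9 CPM. From day 2 to day 7, 10 of 14 members in phagocytes were at least 2-fold higher, where 7.37% of all genes were, and none lower (2.84%). Col27a1, at 3.50 CPM in day 7 phagocytes from 55 UMIs, had 0 UMIs in day 7 lymphocytes, which allows up to 1.92 CPM. The count includes Col1a1 and Col3a1, and the stromal fibrillar class was also 2.04 log2 units higher in the same step (1.27 without the top day 2 cell). Of 17 members 1 was higher and 1 lower after reversal than at day 7 (2.43% and 0.67%). Against sham, 2 of 3 were higher at day 2 (23.0%) and 8 of 9 after reversal (21.1%), with none lower in either (8.93% and 5.72%). Each of those called against sham had 0 sham UMIs, and 0 UMIs in the sham phagocytes allow up to 18.9 CPM, so these 2 counts are no evidence of a change. Of the 10 called at day 7, Col12a1 and Col6a1 had 0, Col6a3 1 and Col27a1 3 UMIs at day 2 and passed the minimum through day 7 alone. Col23a1, a transmembrane collagen, reached 31 UMIs over the 4 phagocyte libraries, with 6.29, 0.73, 1.21 and 1.60 CPM from 1, 4, 19 and 7 UMIs. Lymphocytes had 0, 2, 3 and 2 UMIs of it in gates of 48691, 599596, 1564457 and 1069258 UMIs. Its phagocyte level thus did not lie clearly above that of lymphocytes.

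The Smart-seq2 wells gave a separate measurement of Col14a1. After wells under 50000 reads or 500 genes were left out, 416 wells remained, with a median of 440853.5 reads, and all 416 had at least 10 reads of phagocyte markers, while 6 had as many of stromal markers. Col14a1 had 26626 reads over these wells and any read in 205 of them. At least 10 reads were found in 74 wells (17.8%), and the top well held 9.48% of the reads. Of the other members, Col4a1 had at least 10 reads in 12 wells, Col4a2 in 10, Col18a1, Col27a1 and Col3a1 in 6 each, and Col15a1 in 5. Col1a1 and Col1a2 had at least 10 reads in 3 wells each, and 1 well held 93.3% of the Col1a1 reads and 98.4% of the Col1a2 reads. Time points are mixed in these wells, and the numbers of reads and wells, without molecular identifiers or division by length, rank no gene above another.

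Of the 44 members, 27 had at least 30 UMIs over the 4 libraries in at least 1 of the stromal, endothelial, tubule and phagocyte gates and are described above. The largest count of UMIs fell in the stromal gate for 13 of them, in the tubule gate for 9, in the endothelial gate for 3 and in the phagocyte gate for 2. The minimum fell between Col23a1 (31 UMIs) and Col24a1 (34) just inside and Col7a1 (23) and Col5a3 (21) just outside. Of the 17 others, Col2a1 and Col9a1, cartilage collagens, had no UMI, and 15 had 5 to 69 UMIs over all kept cells. These include the type VI chains Col6a4, Col6a5 and Col6a6, the anchoring fibril collagen Col7a1 and the epithelial transmembrane collagen Col17a1. At this depth their absence from any of the gates cannot be stated.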

How the data were processed

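For 4 droplet libraries the authors deposited unnormalized UMI counts of each gene in each cell (10x 3′ version 2 workflow, per the labels' protocols) and for 1 Smart-seq2 sample read counts of each gene in each well. Per the submitters' processing notes, Cell Ranger and STAR with GRCm38 or mm10 were named, with no role or order. Other aligner settings, versions and the cell calling are not given in the sources used here. How the Smart-seq2 wells were prepared is not known, since their labels give the droplet protocol.

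A cell was kept with 200 or more genes detected and a mitochondrial share of 50% or less, and the highest Scrublet doublet scores were removed at 0.8% per 1000 deposited cells (scanpy 1.11.5, anndata 0.12.19). This left out 398, 60, 3 and 45 cells for genes, 1607, 472, 54 and 414 for mitochondrial share and 187, 48, 160 and 96 as doublets in sham, day 2, day 7 and reversed. Cells were gated by UMI sums of markers: stromal Pdgfrb and Dcn; endothelial Pecam1, Cdh5, Kdr, Emcn, Egfl7, Flt1 and Ptprb; tubule Epcam, Cdh16, Pax8, Lrp2, Cdh1, Slc34a1, Slc12a1, Aqp2, Atp6v1g3 and 1 gene that is not reported here; phagocyte Csf1r, Adgre1, Cd68, Mpeg1, Itgam, Itgax, Cx3cr1, Ms4a7 and Flt3; lymphocyte Cd3d, Cd3e, Cd3g, Trbc2, Cd79a, Cd79b, Ms4a1, Nkg7, Klrb1c and Ncr1. Counts were summed per gate and library and given as CPM with exact Poisson intervals. Ratios are log2 of CPM plus 1, which understates changes of low genes, with exact conditional binomial intervals, and shares have exact Clopper-Pearson intervals. PCR copies are collapsed by UMIs in the droplet data alone.

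No test was run, each group being 1 library. A gene counted as higher or lower at a 2-fold difference, among genes with at least 30 UMIs over both libraries of the gate. The computation was tested on simulated data with known changes. The 93 Smart-seq2 entries that name no gene held 1.57% of reads and were left out. Members with at least 30 UMIs over the libraries in 1 of 4 gates are described, with marker genes and the 3 highest and 3 lowest ratios of the maturation list per stromal comparison. Members, lists and comparisons were chosen with earlier results of these data known. Positions are from GENCODE M21 and promoters from RefSeq GRCm38.p6. Alternatives changed the gates, filters, count minimum and scaling (edgeR 4.0.16 TMM and DESeq2 1.42.0 size factors only, R 4.3.3). The wider gate, the cells led by Slc34a1 alone and leaving out the top collagen cell were added after seeing the data. Scripts used Python 3.11.15 with pandas 2.3.3, numpy 2.4.6, matplotlib 3.10.9 and scipy 1.17.1.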

Additional observations from a re-analysis of the deposited data

Results flagged for a closer look

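Col12a1 went opposite ways in different cells between day 2 and day 7. Its log2 ratio was 3.94 in the stromal gate and 2.00 in phagocytes, against -1.93 in endothelial cells, where day 2 was its high library at 28.5 CPM. The day 2 value is 1 UMI in stromal cells and 0 UMIs in phagocytes, so neither ratio is a measure of size. These differences were not tested.

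Type I chains were lower in stromal cells and higher in endothelial cells after reversal than at day 7. Col1a1 had log2 ratios of -1.48 and 1.49 and Col1a2 of -1.29 and 1.39, in stromal and endothelial cells in turn. The endothelial levels were at most 58.3 CPM, and endothelial Col3a1 had a ratio of -0.37. The difference between the gates was not tested.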

How the results depend on the processing

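No paired analysis was possible because each condition is 1 library. Values are log2 ratios unless named otherwise, and the cause of each shift was not tested. For the classes and counts, 248 recomputed values stayed close to those reported, 75 shifted and 1 more, a ratio past 2-fold, changed sign. For single members these numbers were 975, 210 and 3. Among the shifts, some ratios under 2-fold changed sign too. The type IV ratios of endothelial cells stayed close under all alternatives tried.

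The stromal fibrillar ratio of reversed to day 7 (-1.59) stayed negative throughout: -1.52 with other gates' sums at most 50%, -1.46 without doublet removal, -1.74 with TMM, -1.66 with DESeq2 factors, -1.50 with each cell counted equally, -2.98 with Pdgfrb alone and -1.44 with Dcn alone. Day 7 over day 2 (2.04) was 1.69 without doublet removal, 2.55 with TMM, 2.30 with DESeq2 factors, 1.65 with cells counted equally, 2.39 in the wider gate, 6.05 with Pdgfrb alone and 1.27 without the top collagen cell. With Pdgfrb alone day 2 over sham was 0.60 in place of 5.13 and reversed over sham 3.67 in place of 5.57. Dcn alone left no sham cell and gave no ratio against sham.

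Stromal type IV ratios that rest on 3 sham or day 2 cells were unstable. Day 2 over sham (0.21) was 1.60 with cells counted equally, 2.50 without the top cell and -9.44 with Pdgfrb alone, where day 2 had no type IV UMI. Day 7 over day 2 (1.17) was 0.21, -0.49 and 11.34 under these, so it changed sign without the top cell. Reversed over day 7 (-0.49) was -1.20 with Dcn alone, and reversed over sham (0.89) was 1.91 with TMM. Col12a1 in stromal cells, day 2 over sham (-1.08, 1 UMI each), turned positive at 4.91 with a gate minimum of 3 UMIs, 0.30 with other sums at most 50% and 1.38 in the wider gate.

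Scaling moved the median of all genes by 0.65, 0.51, -0.14 and 1.02 in the stromal gate and by -0.60, -0.25, 0.23 and -0.62 in the tubule gate with TMM, for day 2 over sham, day 7 over day 2, reversed over day 7 and reversed over sham. In the other 2 gates the shift was under 0.1 in size. Tubule type IV ratios (0.33, 0.65, 0.17 and 1.15 in that order) were -0.26, 0.39, 0.40 and 0.54 with TMM and -0.27, 0.35, 0.43 and 0.51 with DESeq2 factors. With mitochondrial UMIs left out of the total they were 0.057, 0.52, 0.37 and 0.95. With at most 20% mitochondrial UMIs day 2 over sham was -0.47, reversed over day 7 0.64 and reversed over sham 0.80. In cells led by Slc34a1 alone day 2 over sham was 0.14 and reversed over sham 0.97. With cells counted equally day 7 over day 2 was 0.74 and reversed over day 7 -0.010.

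The stromal share of fibrillar UMIs (1.04%, 40.8%, 83.7% and 35.6% from sham to reversed) was 3.63%, 48.5%, 86.8% and 53.9% in the wider gate and 3.88%, 46.5%, 84.3% and 38.2% with at most 20% mitochondrial UMIs. With other sums at most 50% it was 48.3%, 85.1% and 40.8% from day 2 to reversed, and without doublet removal 54.5% at day 2 and 84.4% at day 7.

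Counts of members past 2-fold grew with a lower count minimum. With no minimum the stromal gate gave 19, 29, 26 and 28 in place of 4, 13, 11 and 13, and the endothelial gate 10, 12, 8 and 16 in place of 1, 5, 4 and 6, for the 4 comparisons as ordered above. Tubule day 7 over day 2 gave 8 in place of 5 both with no minimum and with a minimum of 10 UMIs. In phagocytes day 2 over sham gave 11 in place of 2 and reversed over sham 19 in place of 8. With a minimum of 10, stromal day 2 over sham gave 7, endothelial day 2 over sham 3 and reversed over sham 10, and phagocyte day 2 over sham 8 and reversed over sham 14. In the wider gate endothelial day 2 over sham gave 2, phagocyte day 2 over sham 1 and phagocyte reversed over day 7 gave 4 in place of 2. Depth limits most the sham and day 2 stromal gates, where 0 UMIs allow up to 173 and 80.4 CPM.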

Other observations

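Cells that entered no gate numbered 167, 152, 324 and 231 over sham, day 2, day 7 and reversed, and had 70.2, 79.9, 742 and 1571 CPM of the fibrillar class. Reversed was the highest library there, whereas in the stromal gate it was day 7.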
